A study of Mus musculus with 18 samples.

Results

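Cxcl1, Cxcl2 and Cxcl3 encode small secreted proteins of the CXC chemokine family. They were chosen by symbol, and 3 of the 54446 genes of the deposited table matched. RNA sequencing was performed on peritoneal eosinophils of Il5Tg mice (an Il5 transgenic line, labelled C57BL/6). All the libraries shared culture for 18 h with apoptotic cells (ACs), which were thymocytes of wild-type mice treated with dexamethasone, at 5 per eosinophil. The 18 libraries form 6 groups of 3. In the Type 1 experiment the cells were left with ACs alone or also received E. coli (E. coli + ACs), IFN-γ (IFN-γ + ACs) or both (IFN-γ + E. coli + ACs), and in the IL-4 experiment they met ACs without or with IL-4 (IL-4 + ACs). The study's methods state that the eosinophils were purified again on anti-Siglec-F beads before RNA extraction. Eosinophils cultured without ACs are not analysed here, so a difference below is that of a stimulus given together with ACs from ACs alone.

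CXCL1, CXCL2 and CXCL3 carry the ELR motif before their first cysteines and act on the receptor CXCR2, which draws neutrophils out of the blood and into tissue. Their genes are classical early targets of NF-κB, which Toll-like receptors engage when they sense bacterial products such as lipopolysaccharide, and their mRNAs are short-lived. Macrophages, epithelial cells and mast cells are well-known sources of these chemokines, and eosinophils can release chemokines as well.

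The 3 genes lie on the plus strand of chromosome 5 of GRCm38, inside a cluster of CXC ligand genes. Cxcl3 (ENSMUSG00000029379) spans chr5:90786103-90789600, Cxcl1 (ENSMUSG00000029380) chr5:90891241-90893115 and Cxcl2 (ENSMUSG00000058427) chr5:90903871-90905938. Cxcl5, Ppbp and Pf4 lie upstream of Cxcl3, and Cxcl15 lies between Cxcl3 and Cxcl1. The coding sequences of Cxcl2 and Cxcl3 were 89.7% identical, those of Cxcl1 and Cxcl2 76.0% and those of Cxcl1 and Cxcl3 72.7%. Because reads came from the 3′ ends of transcripts, the last 500 bases of each annotated transcript were searched for stretches of 50 bases that another gene also holds, and 0 of 451 such stretches were found for each of the 3 genes. The 3 transcripts could thus be counted apart over their last 500 bases.

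The promoters are shown because NF-κB sites are the best known feature that these genes share. The stretches run from 110 to 36 bases before the RefSeq start of each gene (GRCm38.p6, plus strand), 5′ to 3′, at chr5:90891135-90891209 for Cxcl1, chr5:90903789-90903863 for Cxcl2 and chr5:90785991-90786065 for Cxcl3. Capitals mark matches to the NF-κB motif GGNNTTTCC on either strand.
Cxcl1: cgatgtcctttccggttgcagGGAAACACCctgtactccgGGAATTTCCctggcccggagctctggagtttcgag
Cxcl2: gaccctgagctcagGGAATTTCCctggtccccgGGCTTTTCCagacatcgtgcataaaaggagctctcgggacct
Cxcl3: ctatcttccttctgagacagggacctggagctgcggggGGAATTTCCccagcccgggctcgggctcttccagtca

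The same 9 letters, GGAATTTCC, stood in all 3 promoters, from base -70 in Cxcl1, -96 in Cxcl2 and -72 in Cxcl3. These offsets count from the RefSeq start, which for Cxcl2 lies downstream of the gene start given above. Cxcl1 held another match on the minus strand from -89 and Cxcl2 another on the plus strand from -77, while Cxcl3 had 1 match. Of 32851 RefSeq promoters of the same length (250 bases before to 50 after the start), 5.82% held the motif. The TATA box letters TATAAA were found in the Cxcl3 promoter, from -30, and in 13.6% of all promoters. The letters searched for AP-1 (TGANTCA) and for IRF proteins (GAAANNGAA) were in none of the 3 windows and in 7.81% and 8.56% of all promoters.

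Expression is given as normalized count, the reads counted on a gene divided by a size factor of its library. A library held between 779421 and 7782072 reads on genes (median 4461121). In the IL-4 experiment both libraries numbered 3 were shallow, and there 1 read stands for 5.14 (IL-4 + ACs) or 5.36 (ACs) normalized counts. The summed level of 9 eosinophil markers was 10002 to 26577 per library, with most signal from Alox15, Ccr3, Ear6 and Siglecf, while Epx, the eosinophil peroxidase, averaged 0.46 to 14.1 over the groups. A list of 10 macrophage markers, led by the complement genes C1qc and C1qb, was also high, and all its 10 members were detected in every group. Its summed level was 13677 to 17069 in ACs of the Type 1 experiment, 7010 to 8231 with E. coli, 18383 to 26174 with IFN-γ, 7953 to 8081 with both, 19728 to 28732 in ACs of the IL-4 experiment and 16802 to 26938 with IL-4. Of 10 neutrophil markers, whose sum was 1446 to 5025, most signal came from Retnlg. Sums of thymocyte and B cell markers reached 176 and 1040. The sum of 6 mast cell markers was low but moved with the stimuli of the Type 1 experiment, from 5.64 to 20.3 in ACs to 21.1 to 38.4 with E. coli, 26.7 to 67.6 with IFN-γ and 35.6 to 63.5 with both, and was 25.7 to 29.3 in ACs of the IL-4 experiment and 10.3 to 14.2 with IL-4. The part of these cells in the results was not tested. The sum of mesothelial markers was the lowest, with Krt19 at 0 throughout. In bulk samples, a change in the number of cells of a type and a change in RNA per cell cannot be told apart.

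The first question was whether E. coli raised the 3 chemokine transcripts in eosinophils that also met apoptotic cells. All 3 were upregulated by E. coli + ACs over ACs, Cxcl1 and Cxcl3 by about the same factor and Cxcl2 by less. Transcripts called higher in this comparison made up 5.05% of the 10166 tested, where a call needs both an adjusted p below 0.05 and a 1.5-fold change.

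Cxcl1 had normalized counts of 68.3, 81.7 and 63.6 in the ACs libraries and of 480, 402 and 493 in the E. coli + ACs libraries. The lowest E. coli library stood well above the highest ACs library, and the log2 fold change was 2.67 ± 0.16 (SE, n = 3 per group, limma adjusted p = 1.54e-09), or 6.37-fold. Cxcl3 had 88.6, 127 and 83.2 with ACs and 625, 585 and 595 with E. coli + ACs. Again the groups were apart, and the log2 fold change was 2.61 ± 0.21 (limma adjusted p = 7.18e-08), or 6.10-fold. Cxcl2 had 649, 675 and 625 with ACs and 1602, 1467 and 1393 with E. coli + ACs. These groups were apart as well, with a smaller log2 fold change of 1.19 ± 0.12 (limma adjusted p = 1.19e-06), or 2.29-fold. By size of increase Cxcl1 and Cxcl3 ranked 30 and 31 among all transcripts tested, and Cxcl2 ranked 217. The macrophage marker sum moved the other way, its highest E. coli library (8231) lying below its lowest ACs library (13677), and the B cell sum was 307 to 317 against 901 to 1040. The macrophage list was not uniform, since Adgre1 was at 2323 to 2402 with E. coli against 1698 to 1874 normalized counts with ACs. The mast cell sum was higher without overlap, as given above. The neutrophil sums overlapped (2179 to 2432 with E. coli, 2114 to 2395 with ACs), as did Retnlg of that list. S100a8 was higher (254 to 383 against 39.2 to 56.3 normalized counts) and Mmp8 lower (159 to 220 against 485 to 548). Ly6g overlapped, at 4.19 to 7.04 against 2.44 to 4.69, from at most 8 reads in a library. The part of other cell types in the increase was not tested.

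**Figure D1:**
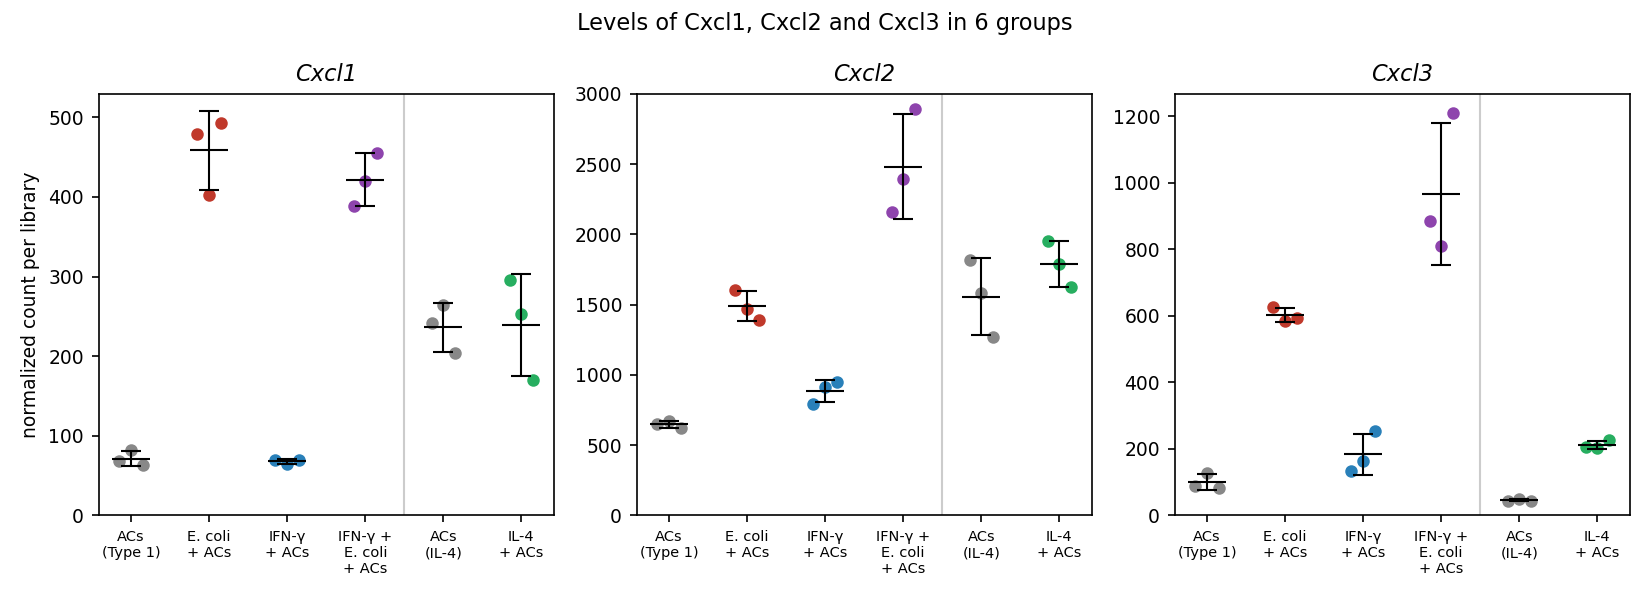
Normalized count (vertical axis, linear, from 0) of Cxcl1, Cxcl2 and Cxcl3 in the 18 libraries by group (horizontal axis), where points are libraries and bars the mean ± SD of 3. The Type 1 experiment is left of the grey line, and both groups with E. coli sit above the groups of that experiment without it for all 3 transcripts.

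The next comparison asked what IFN-γ did without bacteria. IFN-γ + ACs differed from ACs in a different way for each transcript. Cxcl3 was upregulated, Cxcl2 was higher but under the 1.5-fold limit, and Cxcl1 was not called. Transcripts called higher made up 11.4% of those tested, so 1 call in 3 members is read against a high background.

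Cxcl3 had normalized counts of 135, 163 and 252 with IFN-γ + ACs. The lowest of these was close to the highest ACs library (127), but the groups did not overlap, and the log2 fold change was 0.85 ± 0.21 (SE, n = 3 per group, limma adjusted p = 0.00491). Cxcl2 had 795, 914 and 946, all above the 3 ACs libraries, with a log2 fold change of 0.44 ± 0.12 (limma adjusted p = 0.00975), or 1.36-fold. Cxcl1 had 69.9, 64.2 and 69.8, within the range of the ACs libraries. Its log2 fold change was -0.06 with a 95% confidence interval of -0.38 to 0.27 (limma adjusted p = 0.824). The macrophage marker sum was above that of ACs in all 3 IFN-γ libraries, although Mrc1 and Vsig4 of that list averaged 17.9 and 338 against 109 and 544. The eosinophil sum was lower (10002 to 11251 against 16332 to 17750), with Alox15 and Siglecf lower and Ccr3 overlapping. In the neutrophil list Ly6g (12.6 to 34.9 against 2.44 to 4.69) and S100a8 (115 to 146 against 39.2 to 56.3) were higher. Mmp8 of that list was lower (179 to 228 against 485 to 548). The B cell sum was at 97.6 to 179 against 901 to 1040, and the mast cell sum was higher. The part of these cell types was not tested.

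With both stimuli all 3 transcripts were upregulated over ACs, against a background of 14.7% called higher. Under a rescaling of all libraries to a common upper quartile, higher calls made up 34.4% of all calls in this comparison instead of 46.1%. Cxcl3 reached 884, 809 and 1210, its 3 largest values of the series, at 9.66-fold over ACs (log2 3.27 ± 0.21, limma adjusted p = 4.83e-10). Cxcl1 had 389, 420 and 455, or 5.87-fold (log2 2.55 ± 0.16, limma adjusted p = 2.36e-10), overlapping its range with E. coli alone (402 to 493). Cxcl2 had 2161, 2393 and 2889, above every other library, or 3.79-fold (log2 1.92 ± 0.12, limma adjusted p = 3.58e-10). For none of the 3 transcripts did these libraries overlap those of ACs, and the share of all transcripts without overlap was not counted. The macrophage sum was 7953 to 8081 in these libraries, below that of ACs. Adgre1 (2717 to 3140) and Mertk (314 to 459 against 221 to 294) of that list were above, as was the mast cell sum. The neutrophil sum was below that of ACs (1446.3 to 1884.5 against 2113.5 to 2395), as was Retnlg (746 to 1043 against 1506 to 1794). S100a8 (114 to 189) and Ly6g (15.2 to 20.0) of that list were above. The part of these cell types was not tested.

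The design with and without each stimulus allowed the effect of each to be measured in the presence of the other. IFN-γ + E. coli + ACs exceeded IFN-γ + ACs for all 3 transcripts (log2 2.61 for Cxcl1, 1.48 for Cxcl2 and 2.42 for Cxcl3, limma adjusted p at most 3.48e-07), beside 5.96% of transcripts called higher. E. coli + ACs also exceeded IFN-γ + ACs for all 3 (log2 2.73, 0.75 and 1.76, limma adjusted p at most 0.000136), with a background of 6.72%. IFN-γ + E. coli + ACs exceeded E. coli + ACs for 2 of the 3, with a background of 9.79% called higher, and with an upper quartile rescaling the higher share of calls was 36.3% instead of 50.6%.

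Cxcl2 was 1.66-fold higher with both stimuli than with E. coli alone (log2 0.73 ± 0.12, limma adjusted p = 0.000191), and the 2 groups did not overlap. Cxcl3 was 1.58-fold higher (log2 0.66 ± 0.21, limma adjusted p = 0.0262), again without overlap, although the call was lost under the upper quartile rescaling (log2 0.55, adjusted p = 0.0522), without any 1 of the 3 E. coli + ACs libraries (log2 0.64 to 0.69, adjusted p 0.0584 to 0.0760) and without replicate 3 of IFN-γ + E. coli + ACs (log2 0.49, adjusted p = 0.125). Cxcl1 was not called (log2 -0.12, 95% confidence interval -0.44 to 0.21), and its groups overlapped. The interaction of the stimuli was not past the threshold for any member, with 7.44% of transcripts called in either direction. Its log2 value was -0.06 (95% confidence interval -0.52 to 0.40) for Cxcl1, 0.29 (-0.07 to 0.64) for Cxcl2 and -0.19 (-0.81 to 0.43) for Cxcl3.

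**Figure D2:**
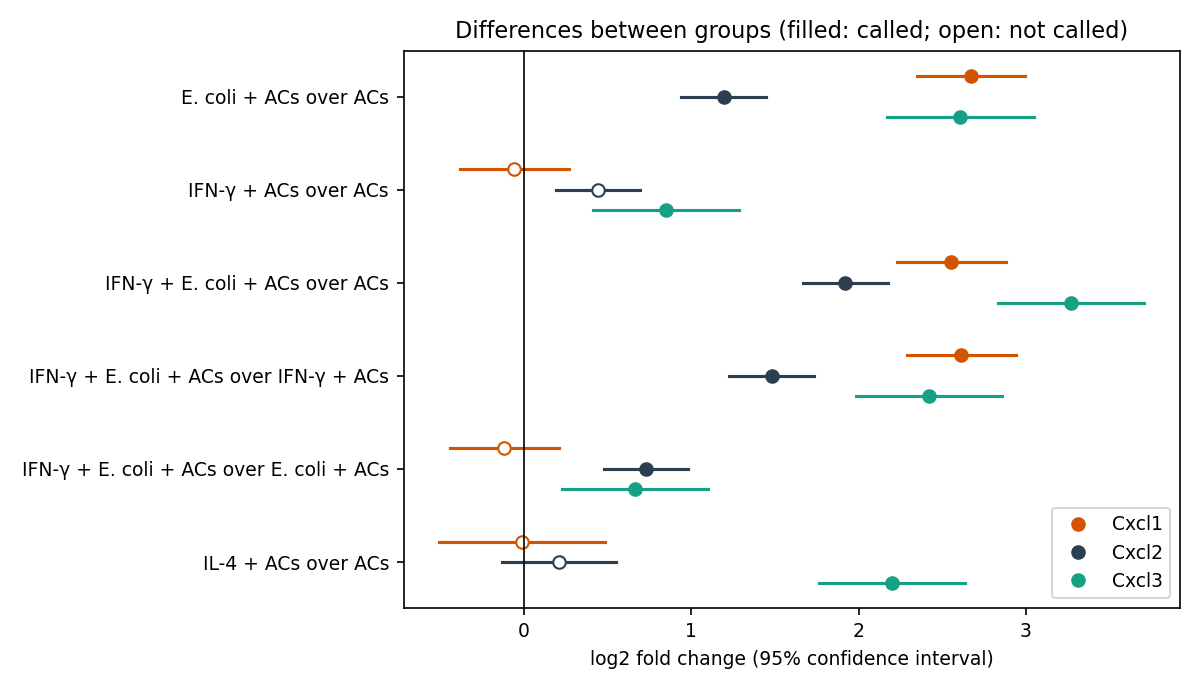
Log2 fold change (horizontal axis) with its 95% confidence interval from limma for Cxcl1, Cxcl2 and Cxcl3 in 6 comparisons (vertical axis), where filled points passed the threshold and open points did not. E. coli raised all 3 with or without IFN-γ, with E. coli present IFN-γ gave filled points for Cxcl2 and Cxcl3 and an open point for Cxcl1, and under IL-4 the interval of Cxcl3 alone lies above 0.

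Each effect was also averaged over both levels of the other stimulus and tested by exact permutation. Labels of a stimulus were permuted within the levels of the other (400 arrangements, two-sided), so that the smallest p possible is 0.005, and p-values were adjusted over the 12 tests of this family. E. coli raised Cxcl1 by 2.64, Cxcl2 by 1.34 and Cxcl3 by 2.52 on the log2 scale, each at the smallest p of the exact test (adjusted 0.00667), with the same sign at both levels of IFN-γ. IFN-γ raised Cxcl2 by 0.59 and Cxcl3 by 0.76 (exact permutation p = 0.005, adjusted 0.00667), also at both levels of E. coli. For Cxcl1 the IFN-γ effect was -0.09 (exact permutation p = 0.27, adjusted 0.324).

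Whether the members moved by different amounts was asked of the log2 ratio of each pair within a library, in which the size factor cancels apart from the added count of 1. The ratio of Cxcl1 to Cxcl2 was -3.23, -3.03 and -3.28 in ACs and -1.74, -1.86 and -1.50 in E. coli + ACs. It rose by 1.31 with E. coli over both levels of IFN-γ, and that of Cxcl3 to Cxcl2 by 1.18 (each exact permutation p = 0.005, adjusted 0.00667). The ratio of Cxcl3 to Cxcl1 differed by -0.13 with E. coli (exact permutation p = 0.45). Cxcl1 and Cxcl3 thus rose more than Cxcl2 with E. coli, and no difference between them was detected.

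With IFN-γ the grouping was another one. The ratio of Cxcl1 to Cxcl2 fell by 0.67 and that of Cxcl3 to Cxcl1 rose by 0.84 (each exact permutation p = 0.005, adjusted 0.00667), whereas the ratio of Cxcl3 to Cxcl2 differed by 0.17 (exact permutation p = 0.31, adjusted 0.338). Within the 3 IFN-γ + ACs libraries the ratio of Cxcl3 to Cxcl1 ran from 0.93 to 1.84, the widest spread of this ratio in the Type 1 experiment. Cxcl3 and Cxcl2 therefore rose relative to Cxcl1 with IFN-γ.

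**Figure D3:**
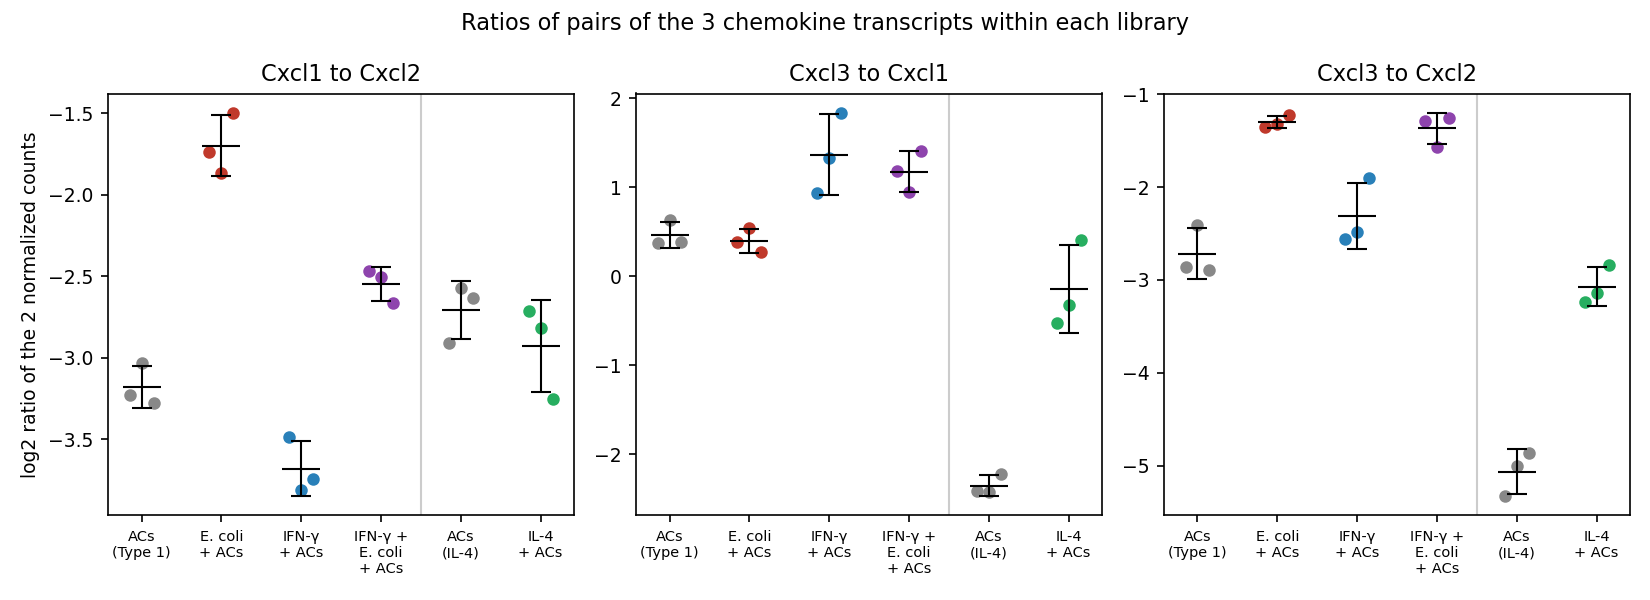
Log2 ratio of the normalized counts of each pair of transcripts (vertical axis, a scale of its own in each panel) in the 18 libraries by group, where points are libraries and bars the mean ± SD of 3. E. coli moved Cxcl1 and Cxcl3 up against Cxcl2, IFN-γ moved Cxcl2 and Cxcl3 up against Cxcl1, and IL-4 moved Cxcl3 up against both.

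The IL-4 experiment asked the same of a Type 2 cytokine. IL-4 + ACs upregulated Cxcl3 over the ACs of its own experiment, while Cxcl1 and Cxcl2 were not called. Transcripts called higher made up only 0.74% of the 10669 tested, and Cxcl3 ranked 53 by size of increase.

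Cxcl3 had normalized counts of 44.4, 48.3 and 42.9 with ACs and of 206, 202 and 226 with IL-4 + ACs. All IL-4 libraries lay far above all ACs libraries (log2 fold change 2.20 ± 0.20, SE, n = 3 per group, limma adjusted p = 0.000554). The shallow libraries held 8 reads (ACs) and 44 reads (IL-4 + ACs) of Cxcl3, for which exact 95% Poisson intervals, covering counting error only, were 18.5 to 84.5 and 164 to 304 normalized counts. Without both shallow libraries, an alternative chosen after seeing the depth, the log2 fold change was 2.11 (limma adjusted p = 1.79e-05).

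Cxcl1 had 241, 265 and 204 with ACs and 296, 253 and 170 with IL-4 + ACs, groups that overlapped widely. Its log2 fold change was -0.01 (95% confidence interval -0.51 to 0.49, limma adjusted p = 0.991). Cxcl2 had 1820, 1580 and 1271 with ACs and 1950, 1787 and 1624 with IL-4 + ACs, also with overlap. Its log2 fold change was 0.21 (95% confidence interval -0.13 to 0.55, limma adjusted p = 0.706). The log2 ratio of Cxcl3 to Cxcl1 was -2.42, -2.43 and -2.22 with ACs and -0.52, -0.32 and 0.41 with IL-4 + ACs, a difference of 2.21, and that of Cxcl3 to Cxcl2 differed by 1.99. With 3 libraries against 3 the exact permutation test cannot go below p = 0.10, the value it gave for both ratios. The macrophage and neutrophil sums of the groups overlapped in this experiment. Mrc1 of the macrophage list was at 144 to 186 with IL-4 against 38.2 to 53.6 with ACs. Timd4 was higher as well (195 to 196 against 81.2 to 150). Vsig4 (341 to 473 against 694 to 1458) and S100a8 of the neutrophil list (10.3 to 20.6 against 28.6 to 59.0) were lower. The eosinophil sum was 23952 to 26577 against 21178 to 23791, with Ear6 higher (8092 to 8689 against 3437 to 5441). Alox15 of that list was lower (9858 to 11269 against 11451 to 11929), and Ccr3 and Siglecf overlapped. The mast cell sum was 10.3 to 14.2 against 25.7 to 29.3. The part of these cell types was not tested.

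The effect of IL-4 was also set against the effects of the Type 1 stimuli, each over the ACs of its own experiment. Stimulus and experiment cannot be told apart in these differences. The IL-4 effect was smaller than that of E. coli for Cxcl1 (log2 difference -2.68, limma adjusted p = 1.31e-06) and Cxcl2 (-0.98, limma adjusted p = 0.00270), with 2.54% of transcripts called lower. For Cxcl3 the difference of the 2 effects was -0.41 (95% confidence interval -1.01 to 0.19, limma adjusted p = 0.526). Against the IFN-γ effect, that of IL-4 was larger for Cxcl3 (1.35, limma adjusted p = 0.00247), with 6.17% of transcripts called higher, and not called for Cxcl1 (0.05) or Cxcl2 (-0.23). Against the effect of both stimuli it was smaller for all 3 members (-2.57, -1.71 and -1.07, limma adjusted p at most 0.0110), with 10.8% of transcripts called lower. In this last comparison the higher share of calls was 59.3% with an upper quartile rescaling and 47.3% without.

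The ACs libraries of the 2 experiments differed in all 3 transcripts although both held eosinophils with ACs alone. In the IL-4 experiment Cxcl1 was 3.29-fold (log2 1.72 ± 0.18) and Cxcl2 2.37-fold higher (1.25 ± 0.14) than in the Type 1 experiment (limma adjusted p = 0.000161 and 0.000237), with 10.7% of transcripts called higher. Cxcl3 was lower (log2 -1.10 ± 0.23, limma adjusted p = 0.00722), with 8.53% called lower. The groups did not overlap for any of the 3, and the share of all transcripts for which that holds was not counted. The sums of macrophage (19728 to 28732 against 13677 to 17069) and eosinophil markers (21178 to 23791 against 16332 to 17750) did not overlap either. Those of neutrophil (3882 to 5025 against 2114 to 2395) and mast cell markers (25.7 to 29.3 against 5.64 to 20.3) were higher as well. The B cell (406 to 466 against 901 to 1040) and thymocyte sums (46.6 to 72.4 against 82.9 to 133) were lower. Members of the lists with higher sums went both ways. Ear6, C1qb and Retnlg were higher in the IL-4 experiment. Lower there were Siglecf (2472 to 2715 against 3169 to 3367), Mrc1 (38.2 to 53.6 against 94.6 to 134) and Mmp8 (280 to 402 against 485 to 548). The part of these cell types was not tested.

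Across the 6 groups the order of the levels therefore depended on the transcript. Cxcl1 was lowest in IFN-γ + ACs and ACs of the Type 1 experiment (means of 68.0 and 71.2), which overlapped, followed by the overlapping ACs and IL-4 + ACs of the IL-4 experiment (237 and 240) and by the overlapping IFN-γ + E. coli + ACs and E. coli + ACs (422 and 458). Cxcl2 rose from ACs of the Type 1 experiment (649) to IFN-γ + ACs (885), then to E. coli + ACs (1487), ACs of the IL-4 experiment (1557) and IL-4 + ACs (1787), each overlapping the next, and to both stimuli (2481). Cxcl3 was lowest in ACs of the IL-4 experiment (45.2), followed by ACs of the Type 1 experiment (99.5), IFN-γ + ACs (183) and IL-4 + ACs (211), the last pair overlapping, and then by E. coli + ACs (602) and both stimuli (967). The ACs of the IL-4 experiment thus lay low for Cxcl3 and in the middle for the others.

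Other genes of the pathway were read from lists, given by counts of members called. Of all transcripts, 5.05% were called higher and 5.25% lower with E. coli, and 11.4% and 9.96% with IFN-γ. With both stimuli the shares were 14.7% and 17.2%, and with IL-4 0.74% and 0.347%. Of the 4 other CXC ligand genes of the cluster, Cxcl15 was too low to test. Cxcl5, a ligand of the same receptor, rose with E. coli (log2 3.88, from 6.6 to 23.6 in ACs to 184 to 195 normalized counts) and with both stimuli (3.56). Ppbp, whose product is cut to another ligand of CXCR2, rose with E. coli (1.46). Pf4, platelet factor 4, which lacks the ELR motif, fell by 0.60 on the log2 scale with IFN-γ and by 1.42 with both stimuli. None of the 3 was called with IL-4 (log2 0.41 to 0.78).

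Cxcl9, Cxcl10 and Cxcl11, which lie over 1500 kb further along chromosome 5, are the genes of the CXCR3 ligands, which attract T cells. In GENCODE Cxcl11 is annotated as a polymorphic pseudogene, and whether its RNA gives a working protein was not tested. All 3 transcripts were called higher with IFN-γ (log2 7.60, 4.18 and 5.37) and with both stimuli (6.41, 4.66 and 5.31). The shares of all transcripts called higher there were 11.4% and 14.7%. With E. coli 2 of the 3 were called, Cxcl10 (3.92) and Cxcl11 (3.78), beside 5.05% of all transcripts called higher. With IL-4 Cxcl10 was the one tested, and it was not called (-0.45).

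Of the receptor genes Cxcr1, Cxcr2 and Ackr1, Cxcr2 passed the filter. Cxcr2 had normalized counts of 41.3 to 71.0 in ACs, 266 to 367 with E. coli, 43.6 to 96.4 with IFN-γ and 184 to 216 with both. It was called higher with E. coli (log2 2.68, limma adjusted p = 8.88e-07) and with both (1.94). With IL-4 it had 108 to 147 against 24.1 to 69.7 with ACs, groups apart, and its log2 fold change of 1.79 missed the threshold (limma adjusted p = 0.0667).

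**Figure D4:**
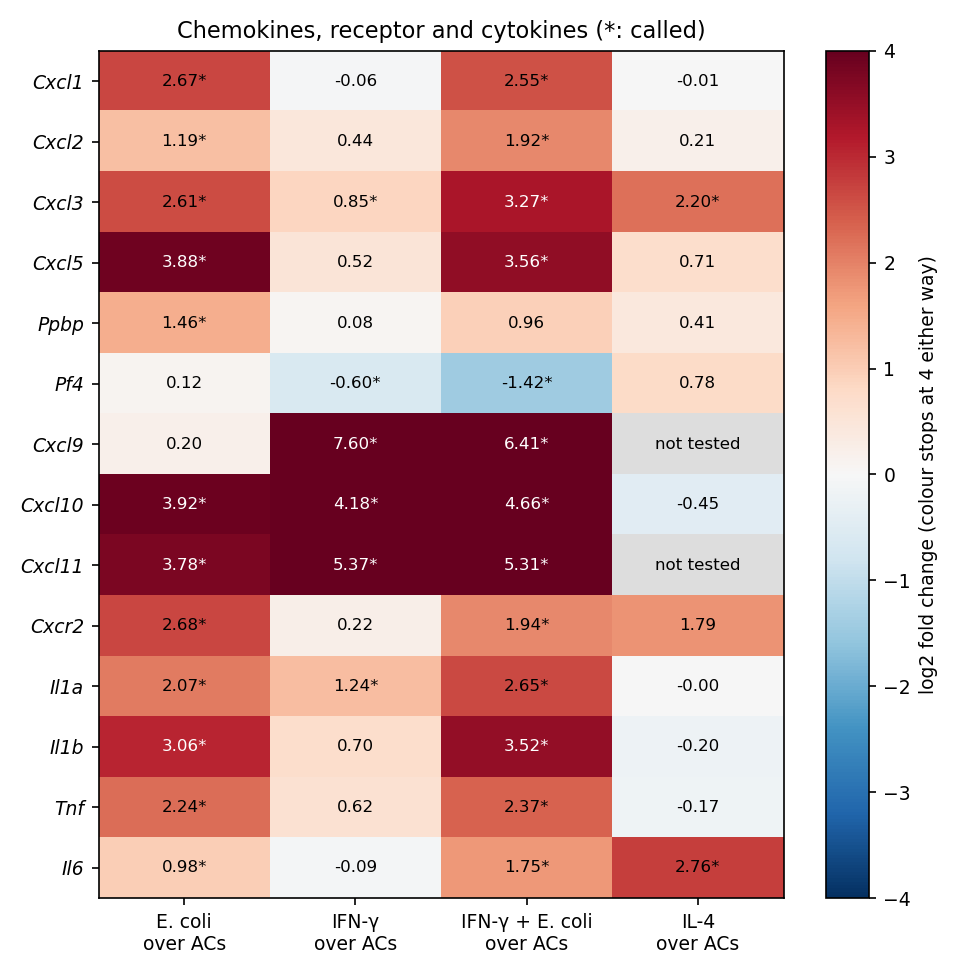
Log2 fold change over the ACs of the same experiment (colour and printed value) for the 3 chemokines, other CXC ligands, the receptor Cxcr2 and cytokines (rows) with each stimulus (columns), where a star marks a call and grey a transcript too low to test. Cxcl3, at 2.20, and Il6, at 2.76, are the called rows under IL-4, while under E. coli all rows but Pf4 and Cxcl9 are called.

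The list of cytokines that induce these chemokines or direct neutrophils had 7 members, of which 2 were too low to test. The 5 tested were all called higher with E. coli (median log2 2.24) and with both stimuli (2.65). Those comparisons had 5.05% and 14.7% of all transcripts called higher. With IFN-γ 1 of the 5, Il1a, was called, beside 11.4% of all transcripts called higher. Il1b, encoding interleukin 1β, rose by 3.06 with E. coli, and Tnf, encoding tumour necrosis factor, by 2.24. With IL-4 1 of 4 tested was called, Il6 (log2 2.76, from 27.2 to 64.3 to 202 to 396 normalized counts). The share of all transcripts called higher there was 0.74%. In the ACs of the IL-4 experiment Il1a (1.78) and Il1b (2.85) were higher than in those of the Type 1 experiment, as Cxcl1 and Cxcl2 were. In that comparison 10.7% of all transcripts were called higher.

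The counts that follow stand beside shares of all transcripts called higher and lower of 5.05% and 5.25% with E. coli, 11.4% and 9.96% with IFN-γ, 14.7% and 17.2% with both, and 0.74% and 0.347% with IL-4, so that 0 calls with IL-4 in lists of this length is near the background. Of 15 genes of the TLR4 pathway, 14 were tested in the Type 1 experiment, and E. coli raised 3 and lowered 1. Cd14, the co-receptor for lipopolysaccharide, rose by 0.92 with E. coli, Irak2, a kinase of the receptor complex, by 1.38 and Irak3, a negative regulator of it, by 1.61. With IFN-γ 2 rose and 1 fell, with both stimuli 5 rose and 1 fell, and with IL-4 0 of 15 were called. Of 15 NF-κB subunits and inhibitors, 6 rose with E. coli, 5 with IFN-γ, 8 with both and 0 with IL-4, and none fell. Nfkb2, a subunit gene, rose by 1.49 with E. coli, and Nfkbia, encoding the inhibitor IκBα, was not called (0.20). Of 13 regulators of chemokine mRNA decay, 3 rose and 2 fell with E. coli, 4 rose and 1 fell with IFN-γ, 7 rose and 2 fell with both, and 0 were called with IL-4. Dusp1, encoding a phosphatase of p38 kinases, fell by 0.80 with E. coli, and Zfp36, encoding tristetraprolin, which destabilises such mRNAs, was not called (-0.03). The median log2 fold change over all transcripts tested was 0.00 in the E. coli comparison, and that of the TLR4, NF-κB and decay lists 0.20, 0.48 and 0.28.

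Likeness of pattern was measured as the root mean square difference over the 4 log2 fold changes over ACs, among 6895 transcripts with a mean of at least 50. It is a description, since 3 of the 4 values share the same ACs libraries. Nearest to Cxcl1 was Pim2, a kinase gene (0.43), followed by Ccl3, a chemokine gene (0.54), Lhfpl2, Il1r2 and Marcksl1, and Cxcl2 ranked 19 and Cxcl3 154. Nearest to Cxcl2 was Nfkbid, a gene of the IκB family (0.15), followed by Lmnb1, Agpat5, Csf2rb2 and Serpinb2, and Cxcl1 ranked 1108 and Cxcl3 5156. Nearest to Cxcl3 was Cxcr2 (0.77), followed by Lhfpl2, Fchsd2, Olr1 and Cd9, and Cxcl1 ranked 26 and Cxcl2 48. Each chemokine thus had other transcripts nearer to it than its neighbours in the cluster.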

How the data were processed

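Libraries were made by CEL-Seq2, a 3′ end method. The values deposited by the authors are a signal, namely the reads of each gene over a DESeq2 size factor. The submitters' processing notes name TopHat2 2.1.0, Bowtie2 2.2.6, HTSeq 0.6.1, DESeq2 1.26.0 and GRCm38. The study's methods also describe a second pipeline, and which made the table is not stated in the sources used here. The values were whole multiples of 1 step per library, which gave whole reads for 100% of them within 0.1 read. Of 54446 identifiers 54409 matched a symbol.

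Comparisons were fitted with limma 3.58.1 (R 4.3.3, eBayes with trend) on log2 of the normalized count plus 1, which understates changes of low genes, for genes whose mean reached 10 in the libraries fitted: 12 of the Type 1 experiment, 6 of the IL-4 experiment, 6 ACs libraries, or all 18. A call needed a Benjamini-Hochberg adjusted p under 0.05 over all genes tested and a 1.5-fold change. Exact permutation tests used Python 3.11.15 and numpy 2.4.6. Replicates within a group differed by more than counting error (chi-square per degree of freedom 3.92 to 13.15). The labels do not say that replicates came from separate mice. The study's statistics section gives 3 biological replicates, and a figure legend, for eosinophils with and without ACs, gives each lane a different mouse. Which of these libraries that covers is not stated, so p-values measure the spread between these libraries. ACs libraries were assigned to the 2 experiments by the naming of the sample descriptions.

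Alternatives were edgeR 4.0.16 or DESeq2 1.42.0 with the recovered reads, a pseudocount of 5, array weights, no filter, a filter at 50, a common upper quartile, the replicate number as a block, all 18 libraries in one fit, and each library left out. Members and lists were chosen with earlier results of these data known. In each list up to 4 members of highest mean, and all members of lists of 4 or fewer, could be named, and the 5 nearest transcripts in pattern were named. In data simulated for the Type 1 and IL-4 designs, limma recovered 97.5% and 85.5% of 200 genes changed 4-fold, with 7 and 1 false calls. The simulation used the same dispersion for every gene, so it does not give the error rates of the real data. Promoter sequences are RefSeq's (GRCm38.p6, all 3 members matched), and transcripts and positions GENCODE's for GRCm38. The result of 1 further promoter motif is not reported here.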

Additional observations from a re-analysis of the deposited data

How the results depend on the processing

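Of the log2 fold changes and exact tests of Cxcl1, Cxcl2 and Cxcl3, 1 changed its call: Cxcl3 in IFN-γ + E. coli + ACs over E. coli + ACs. It fell to 0.55 (limma adjusted p = 0.0522) with a common upper quartile, and ran from 0.49 to 0.78 with 1 library left out, the call being lost without any of the 3 E. coli + ACs libraries or without replicate 3 of both stimuli. The cause was not tested. The upper quartile moved the median of all transcripts from -0.04 to -0.15 in that comparison, from -0.05 to -0.18 in IFN-γ + E. coli + ACs over ACs and from 0.04 to 0.17 in the IL-4 effect minus that of both. The other 610 values of the 3 transcripts and all 168 values of the exact tests kept their side of the threshold.

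The number of transcripts called with IL-4, 116, was the least settled: 208 with no filter, 745 with array weights, 212 by edgeR, 209 by DESeq2, 74 with the replicate block, 221 with all 18 libraries in one fit, 656 without the 2 shallow libraries (chosen after seeing the data), and 47, 57, 62 and 61 without IL-4 + ACs replicate 1 or 2 or ACs replicate 1 or 2. The interaction had 756 calls, 495 with all 18 libraries and 439, 400 and 486 without ACs replicate 3, E. coli + ACs replicate 1 or IFN-γ + ACs replicate 2. The comparison of the ACs groups had 2038 calls and 1264 without replicate 3 of the Type 1 ACs. The IL-4 effect minus that of E. coli had 461, with 1431 under array weights and 711 by DESeq2, and minus that of IFN-γ 1486, with 2423 under array weights.

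Replicate numbers did not pair the libraries: the residuals of libraries with the same number correlated at 0.01 on average (-0.09 to 0.09), and 6 of 18 libraries correlated best with one of their own number. With the replicate block Cxcl3 kept its call with IL-4 (limma adjusted p = 0.00867), no call of a member changed, and the smallest exact p of the block gave an adjusted 0.0417. No block was fitted between the ACs groups, whose numbers belong to different experiments. In the shallow libraries 3 reads stand for 15.4 and 16.1 normalized counts, which limits transcripts at that level.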
